A study of Rattus norvegicus with 2 samples.

Results

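Fatty acid synthesis and desaturation is represented here by a fixed list of 10 enzyme genes, taken from the expression table by gene symbol. They cover acetyl-CoA supply (Acly, Acss2), malonyl-CoA formation (Acaca, Acacb), chain synthesis (Fasn), elongation (Elovl5, Elovl6) and desaturation (Scd, Fads1, Fads2). The table had a row for 9 of the 10 among its 17049 genes, and Elovl6 is not analysed here. Of the 9 genes, 8 reached 1 TPM (a transcript level corrected for gene length and library total) in either library, as did 12980 genes in all. Acacb stayed below that level.

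The study cultured primary oligodendrocyte precursor cells (OPCs) from the brain of wild-type adult rats. One culture, labelled Aβ, was exposed for 2 days to 1 µM amyloid-β, the peptide that forms the plaques of Alzheimer's disease. The control is labelled DMSO, a solvent, although the protocol text names Aβ for either sample. Both cultures grew at 37 °C and 5% CO2 in OGM medium, and the number of animals behind each is not stated in the sources used here. The comparison asks how OPCs respond to Aβ.

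Each group had 1 library, with 15704932 estimated reads (Aβ) and 15663751 (control), so no difference below has a replicate check. Each value compares 2 libraries rather than the conditions, and each 95% interval covers counting error only. Of the OPC markers, Olig1 had 1420.5 TPM in the Aβ library against 1557 TPM in the control and Pdgfra 23.2 and 24.6 TPM, while Sox10 had only 22 and 33 reads and Gpr17 only 4 and 5. The OPC markers were split: of the 9 at 1 TPM or more, 4 were higher and 5 lower, with a read interval above 1 for 3 (Cspg4 at 1.78, 1.54 to 2.05, C1ql1 and Lhfpl3) and below 1 for 4 (Olig1, Olig2, Ptprz1 and Pdgfra). The 8 astrocyte markers summed to 2327 TPM (Aβ) and 2336 TPM (control), and the 10 OPC markers to 2748 and 2948 TPM, mostly from Olig1 and Ptprz1. The astrocyte markers were split as well. Their read interval lay above 1 for 3 (Slc1a3, Gja1 and Aldoc) and below 1 for 4 (Gfap, Aqp4, Aldh1l1 and S100b). In 6 further sets with rows in the table, the summed levels were 215 and 228 TPM (8 mature oligodendrocyte markers), 153 and 196 TPM (8 microglia), 32.0 and 27.2 TPM (7 neuron), 4.33 and 4.26 TPM (4 endothelium), 7.72 and 5.10 TPM (4 pericyte and smooth muscle) and 2.02 and 5.07 TPM (3 fibroblast). Most of the pericyte and smooth muscle sum was Cspg4 (6.65 and 3.70 TPM), which is also counted as an OPC marker. The other 3 genes of that set were under 1 TPM. Most of the mature oligodendrocyte sum was Cnp (169 and 178 TPM). Among the markers, Acta2 had 0 reads in the Aβ library against 2, and none was at 0 in both. The part of such cells in the results below was not tested, and in bulk RNA fewer cells of a type and less RNA per cell cannot be told apart.

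Cells build fatty acids from cytosolic acetyl-CoA. ATP citrate lyase (Acly) makes it from citrate exported by mitochondria, and acetyl-CoA synthetase 2 (Acss2) makes it from acetate. Acetyl-CoA carboxylase converts it to malonyl-CoA, fatty acid synthase (Fasn) assembles palmitate from that, elongases lengthen the chain, and desaturases add double bonds. Oligodendrocytes depend on this pathway for the lipids of myelin. Many of its genes are targets of SREBP transcription factors, which are released from the endoplasmic reticulum when sterols are low.

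Promoter sequences of 7 of the 10 genes were found in RefSeq (build GRCr8), and each was searched over the 250 bases before the start of transcription given there. For Acly, Acss2 and Scd this window lies wholly inside the gene as RefSeq draws it. For Fads2 and Fads1 it does so in part, with 93 and 163 bases outside. The upstream sequence is shown for Elovl5, higher with Aβ by reads, and Fads1, the only listed gene whose read interval lay below 1. In both it is printed only as far as it lies outside the gene as RefSeq draws it, which is the whole window for Elovl5 at chr8:87670914-87671163 (plus strand) and 163 bases for Fads1 at chr1:216252442-216252604 (plus strand). Capitals mark CCAAT (the core bound by NF-Y), GGGCGG (a GC box, bound by Sp1) and CACGTG (an E-box), on either strand, with no overlap between them.

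Elovl5: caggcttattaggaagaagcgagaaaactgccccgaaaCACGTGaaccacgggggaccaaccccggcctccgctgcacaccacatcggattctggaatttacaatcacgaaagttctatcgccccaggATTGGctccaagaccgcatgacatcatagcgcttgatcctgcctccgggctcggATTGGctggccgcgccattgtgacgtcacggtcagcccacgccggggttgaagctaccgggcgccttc
Fads1: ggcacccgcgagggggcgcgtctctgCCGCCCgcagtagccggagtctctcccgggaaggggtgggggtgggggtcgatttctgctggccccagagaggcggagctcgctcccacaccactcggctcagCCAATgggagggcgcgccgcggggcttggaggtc

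The Elovl5 window held 2 CCAAT matches and 1 E-box, and the Fads1 window held 1 CCAAT and 1 GC box. Over the 250-base windows, CCAAT was found in 5 of the 7 genes (Acacb, Acly, Acss2, Elovl5 and Fads1) and in 34.0% of all 33469 promoters in the RefSeq table. The GC box was found in 4 of 7 (Acly, Acss2, Fads1 and Fads2, with 4 matches in Acss2) against 30.5%, and the E-box in Elovl5 alone against 5.59%. The sterol regulatory element form TCACNCCAC was in none of the 7 and in 0.974% of all promoters, which says only that these letters do not occur in these windows. The Scd window held none of the motifs.

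Among the 8 genes at 1 TPM or more, those that supply acetyl-CoA, assemble the chain and elongate it (Elovl5) were higher in the Aβ library. Scd, which inserts a first double bond, was higher too, while Acaca and Fads2 lay near equality and Fads1 was lower. The higher value of Scd is a transcript level, and desaturation itself was not measured. The more abundant paralogue of Scd, Scd2, outside the list, was lower with Aβ (1661 against 1799 TPM). The sum of Scd and Scd2 was lower as well (1817 against 1924 TPM). The ratio of reads, each scaled to its library total, had a 95% interval above 1 for 5 of the 8 (Acss2, Scd, Fasn, Acly and Elovl5), below 1 for Fads1, and including 1 for Acaca and Fads2. Over all 12980 genes that interval lay above 1 for 12% and below 1 for 12.5%. Deeply counted genes have narrow intervals, and these 8 genes had a median of 11094 reads over both libraries. Among the 6499 genes with 1000 or more reads in sum, as all 8 had, the shares were 14.8% above and 17% below.

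The sizes were modest. None of the 8 was at least 2-fold higher, as 0.501% of all genes were, and none was at least 2-fold lower, as 0.493% were, by the ratio of TPM + 1. At least 1.2-fold higher were 2 of the 8 (Acss2 and Scd), against 8.09% of all genes, and at least 1.2-fold lower were 0, against 6.98%. The median log2 ratio of the 8 was 0.18 (1.13-fold), beside 0.01 for all 12980 genes, of which the central 95% ran from 0.734-fold to 1.39-fold. By TPM 7 of the 8 were above equality and Fads1 below, whereas by reads scaled to the total, or by FPKM, Acaca also fell just below and the split was 6 to 2. Of all 12980 genes, 6710 were above equality and 6222 below by the ratio of TPM + 1.

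**Figure D1:**
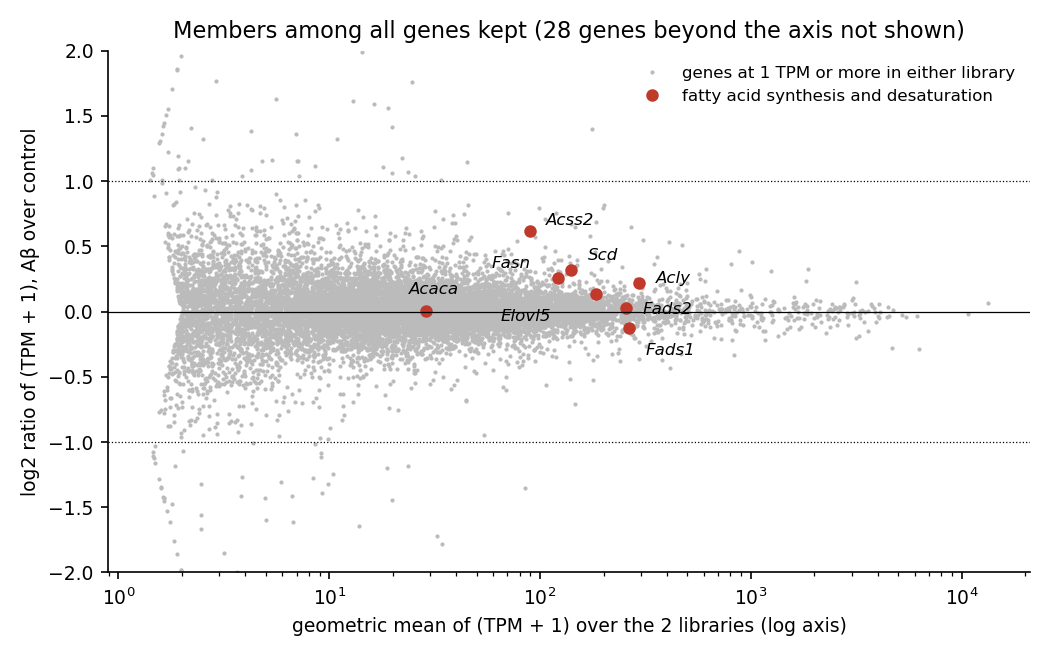
Log2 ratio of (TPM + 1), Aβ over control, against the geometric mean of (TPM + 1) of the 2 libraries on a log axis, for each gene at 1 TPM or more (grey) and the 8 genes of fatty acid synthesis and desaturation at that level (red). Dotted lines mark 2-fold, 28 genes lie beyond the axis, and the red points run from −0.13 (Fads1) to 0.62 (Acss2).

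By level, most of the pathway stood high and its carboxylases lower. Acly, Acss2, Fasn, Elovl5, Scd, Fads1 and Fads2 lay above 88.0% or more of the 12980 genes in the Aβ library and above 81.1% or more in the control, whereas Acaca lay above 57.7% and 57.9%. Summed over the 9 genes, TPM was 1442 with Aβ and 1307 in the control, or 0.144% and 0.131% of all TPM. In the Aβ library the order of TPM levels was Acly, Fads2, Fads1, Elovl5, Scd, Fasn, Acss2, Acaca and Acacb. In the control it was the same except that Fads1 stood before Acly and Fads2. With 1 library per group there is no spread over samples against which to set neighbours in these orders, and the 3 leading genes lay between 250 and 317 TPM with Aβ and between 252 and 274 TPM in the control.

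**Figure D2:**
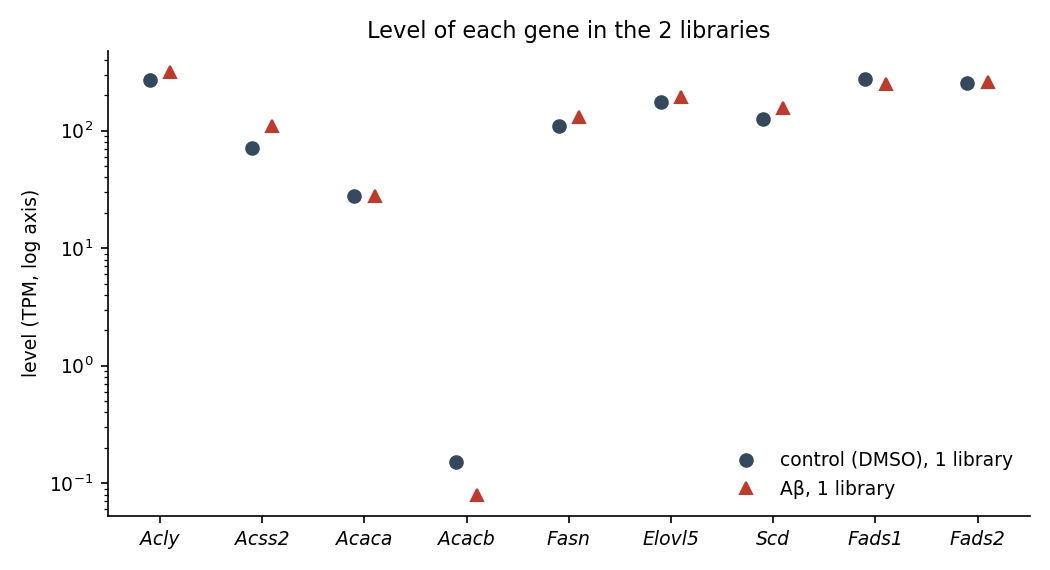
Level of each of the 9 genes in TPM on a log axis, with the control library as circles and the Aβ library as triangles, ordered by step of the pathway. Acacb stands near the bottom at 0.15 and 0.08 TPM, Acaca at about 27.8 TPM in both, and the other genes above 70 TPM.

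Both cytosolic acetyl-CoA enzymes were higher with Aβ. Acss2 (gene number 311569), the acetate-using enzyme, had 109 TPM in the Aβ library against 71.0 TPM in the control (2937 and 1912 reads), giving a read ratio of 1.53 (1.45 to 1.62). It had the highest ratio of the 9 genes and stood 173rd of 12980 genes by the ratio of TPM + 1. Acly (24159), the citrate-using enzyme, was at 317 and 272 TPM, from 13282 and 11463 reads, a read ratio of 1.16 (1.13 to 1.18). The difference between the pair was larger than counting error, since the ratio of Acss2 exceeded that of Acly 1.33-fold (Wald 95% interval of counts 1.25 to 1.41).

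The steps around acetyl-CoA did not move as a block. Of 12 genes listed for acetyl-CoA supply and citrate export, 11 were at 1 TPM or more, of which 7 were higher and 4 lower by TPM (5 and 6 by reads), with a read interval above 1 for 5, below 1 for 1, and a median log2 ratio of 0.00. The mitochondrial citrate carrier Slc25a1, which brings the substrate of Acly to the cytosol, was at 156 and 120 TPM (read ratio 1.29, 1.21 to 1.38). Acss1, the mitochondrial acetyl-CoA synthetase, was at 96.8 and 119 TPM (0.810, 0.773 to 0.848), opposite to its cytosolic relative, and the ratios of Acss2 and Acss1 differed 1.89-fold (1.76 to 2.04). The 7 genes of NADPH supply, the reducing power of the pathway, lay close to equal, with 3 higher and 4 lower by TPM (2 and 5 by reads), a median log2 ratio of 0.00 and a read interval above 1 only for Idh1 (1.08, 1.03 to 1.14). The next in size among them were Mthfd1 (1.03, 0.974 to 1.08) and Taldo1 (0.981, 0.925 to 1.04).

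Of the carboxylases that form malonyl-CoA, one lay near equality and the other was too low to compare. Acaca (60581), the cytosolic isoform that feeds synthesis, had 27.83 TPM in the Aβ library against 27.76 TPM in the control (1908 and 1917 reads), giving a read ratio of 0.993 (0.931 to 1.06). Acacb (116719), the isoform at the mitochondrial surface whose malonyl-CoA restrains fatty acid oxidation, had 7 and 13 reads (0.537, 0.181 to 1.45), and no difference was detectable at this depth. Of 13 genes listed for malonyl-CoA and its control, among them subunits of the AMP-activated kinase that inhibits the carboxylases, 12 were measured at 1 TPM or more, 8 higher and 4 lower by TPM (7 and 5 by reads), their median log2 ratio being 0.01. The read interval lay above 1 for Mlycd, the malonyl-CoA decarboxylase (1.16, 1.04 to 1.29), and below 1 for Hlcs, which attaches biotin to the carboxylases (0.882, 0.788 to 0.987). Prkag2, a kinase subunit, was at 0.881 (0.711 to 1.09).

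Fasn (50671), the synthase, had 132 TPM in the Aβ library against 110 TPM in the control (12186 and 10274 reads), giving a read ratio of 1.18 (1.15 to 1.21). Its ratio exceeded that of Acaca, the preceding enzyme, 1.19-fold (1.11 to 1.28), and that of Acly did so 1.16-fold (1.09 to 1.25). Fasn stood 4.74 times above Acaca by TPM level with Aβ and 3.98 times in the control. Fasn and Acly were not told apart by counting, with a ratio of their ratios of 1.02 (0.987 to 1.06).

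**Figure D3:**
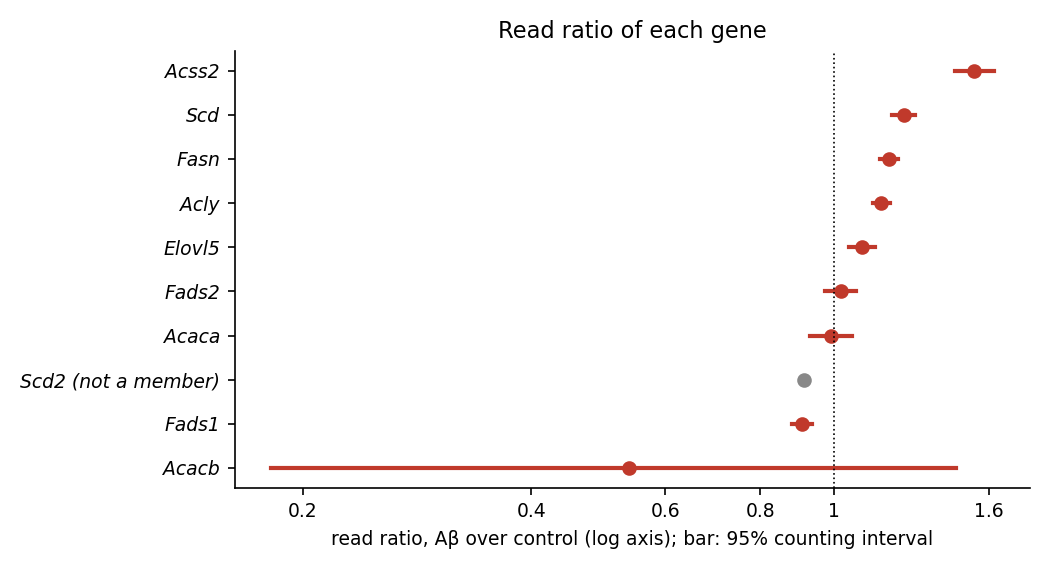
Read ratio, Aβ over control, on a log axis, with 95% counting intervals as bars, for the 9 genes (red) and the paralogue Scd2 (grey, its bar narrower than the point). The intervals of Acss2, Scd, Fasn, Acly and Elovl5 lie above 1 and that of Fads1 below, while Acacb, on 7 and 13 reads, spans 0.181 to 1.45.

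Elovl5 (171400), an elongase of polyunsaturated chains, had 192 TPM in the Aβ library against 175 TPM in the control (4882 and 4469 reads), giving a read ratio of 1.09 (1.05 to 1.13). Of the 7 elongases, 6 had rows and 5 reached 1 TPM, of which 4 were higher and 1 lower, and the median log2 ratio was 0.13. Elovl1, which lengthens saturated chains, was at 1.09 (1.01 to 1.18) and Elovl4, of very long chains, at 1.03 (0.920 to 1.15). Elovl2, which acts on polyunsaturated chains as Elovl5 does, was at 0.963 (0.915 to 1.01), and the 2 ratios differed 1.13-fold (1.06 to 1.21). Elovl7 passed the level filter on 6 and 4 reads.

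The later enzymes of the elongation cycle held another of the higher genes. Tecr, the reductase that completes each round, was at 537 and 462 TPM (read ratio 1.17, 1.12 to 1.22). The dehydratase Hacd2 was at 1.21 (1.04 to 1.41) and Hacd1 at 0.966 (0.717 to 1.30). Of 5 measured genes in this list 4 were higher and 1 lower by TPM, but 3 and 2 by reads, Hacd1 being the gene that turned, with a median log2 ratio of 0.11, which was 0.02 by reads scaled to the total.

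The desaturases went apart. Scd (246074), which places the double bond of oleate, had 156 TPM in the Aβ library against 125 TPM in the control (7103.99 and 5732 reads), giving a read ratio of 1.24 (1.19 to 1.28). Fads1 (84575), the delta-5 desaturase of polyunsaturated chains, was at 250 and 274 TPM, from 8035 and 8822 reads, a read ratio of 0.908 (0.881 to 0.936). Fads2 (83512), the delta-6 desaturase that acts before it, was at 258 and 252 TPM, from 3595 and 3512 reads, a read ratio of 1.02 (0.974 to 1.07). The ratio of Scd exceeded that of Fads1 1.36-fold (1.30 to 1.42), and that of Fads2 exceeded it 1.12-fold (1.06 to 1.19).

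Scd was not the main stearoyl-CoA desaturase transcript in these cells. Its paralogue Scd2, not one of the 10 genes, had 1661 TPM in the Aβ library against 1799 TPM in the control (82293 and 89746 reads), giving a read ratio of 0.915 (0.906 to 0.923). By TPM level Scd2 stood 10.7 times above Scd with Aβ and 14.4 times in the control, while Scd4 had only 2 and 4 reads. Scd and Scd2 lay on opposite sides of equality, and their ratios differed 1.35-fold (1.30 to 1.40). In the Aβ library their read values were not whole, with decimals of 0.99 for Scd and 0.01 for Scd2. How far reads were shared between these similar genes was not tested, so the value of Scd is uncertain to that extent. Their sum of 89397 and 95478 reads gave a ratio of 0.934 (0.925 to 0.942), in which Scd contributed 7.95% of the reads with Aβ and 6.003% in the control.

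Of 11 genes listed for desaturation and its electron supply, 9 were at 1 TPM or more, with 2 higher, 6 lower and 1 equal by TPM (3 higher and 6 lower by reads), a median log2 ratio of −0.06, and a read interval above 1 for Scd and below 1 for Scd2 and Fads1. Fads3 (0.861, 0.633 to 1.17) and Fads6 (0.859, 0.602 to 1.22) had under 100 reads in each library. Cyb5a and Cyb5r3, which carry electrons to the desaturases, were at 1.02 (0.858 to 1.21) and 0.996 (0.932 to 1.06).

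Ordered by read ratio, the genes ran Acss2, Scd, Fasn, Acly, Elovl5, Fads2, Acaca, Fads1 and Acacb. Of the 8 neighbouring pairs in this order, the interval of the ratio between neighbours included 1 for Fasn and Acly, for Fads2 and Acaca (1.03, 0.951 to 1.11), and for Fads1 and Acacb (1.69, 0.675 to 4.24). It lay above 1 for the other 5, of which Acss2 over Scd was the widest gap, at 1.24 (1.16 to 1.33), and Scd over Fasn the closest to 1, at 1.04 (1.0003 to 1.09). The ordering itself places each of these ratios at 1 or more, so their side of 1 is not a result. The intervals do not allow for the sorting, so the number that lay above 1 is not a result either.

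The regulators of the pathway did not share 1 direction. Srebf1, which encodes the SREBP that drives fatty acid genes, had 40.8 TPM in the Aβ library against 52.6 TPM in the control, giving a read ratio of 0.767 (0.718 to 0.818) from reads that were not whole. Insig1, an SREBP target whose protein retains SREBP in the endoplasmic reticulum, was at 239 and 183 TPM (1.30, 1.25 to 1.36). Of 15 listed transcription factors and SREBP control genes, 13 were measured, 10 higher and 3 lower, with a read interval above 1 for 4, below 1 for Srebf1, and a median log2 ratio of 0.07. The oxysterol receptor Nr1h3 was at 1.21 (0.882 to 1.67), and Mlxipl, which encodes the carbohydrate-responsive factor of lipogenesis, had 1 and 4 reads.

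Cholesterol synthesis, the neighbouring branch from acetyl-CoA, is set beside the fatty acid genes for size, on a list chosen with earlier results known. All 17 of its listed enzymes were higher, with a read interval above 1 for 16 and a median log2 ratio of 0.36, and 15 were at least 1.2-fold higher, where 2 of the 8 fatty acid genes were. Idi1 (1.49, 1.43 to 1.55), Lss (1.37, 1.31 to 1.44) and Msmo1 (1.37, 1.34 to 1.41) had the largest ratios there, and of the fatty acid genes only Acss2 reached them. Over all 12980 genes, 6710 were higher by TPM, 12% had a read interval above 1 and 8.09% were at least 1.2-fold higher. No test of the difference between the lists was made.

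Genes that use the products were divided. Of 9 measured acyl-CoA synthetases, which activate fatty acids, 3 were higher and 6 lower, their median log2 ratio being −0.05, and read intervals lay above 1 for 3 genes and below 1 for 2. Acsl4 (1.22, 1.16 to 1.29), which prefers arachidonate, and Acsbg1 (1.21, 1.14 to 1.29) were higher, and Acsl6 was lower (0.783, 0.707 to 0.867). Of 18 measured genes of fatty acid oxidation, 8 were higher and 10 lower, their median log2 ratio being −0.01, and read intervals lay above 1 for 4 genes and below 1 for 1. Cpt1a, the entry enzyme of mitochondrial oxidation, was lower (0.812, 0.742 to 0.888) and the dehydrogenase Acadm higher (1.22, 1.07 to 1.38). Echs1 was listed at 2.26 (1.99 to 2.57) on reads that were not whole.

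**Figure D4:**
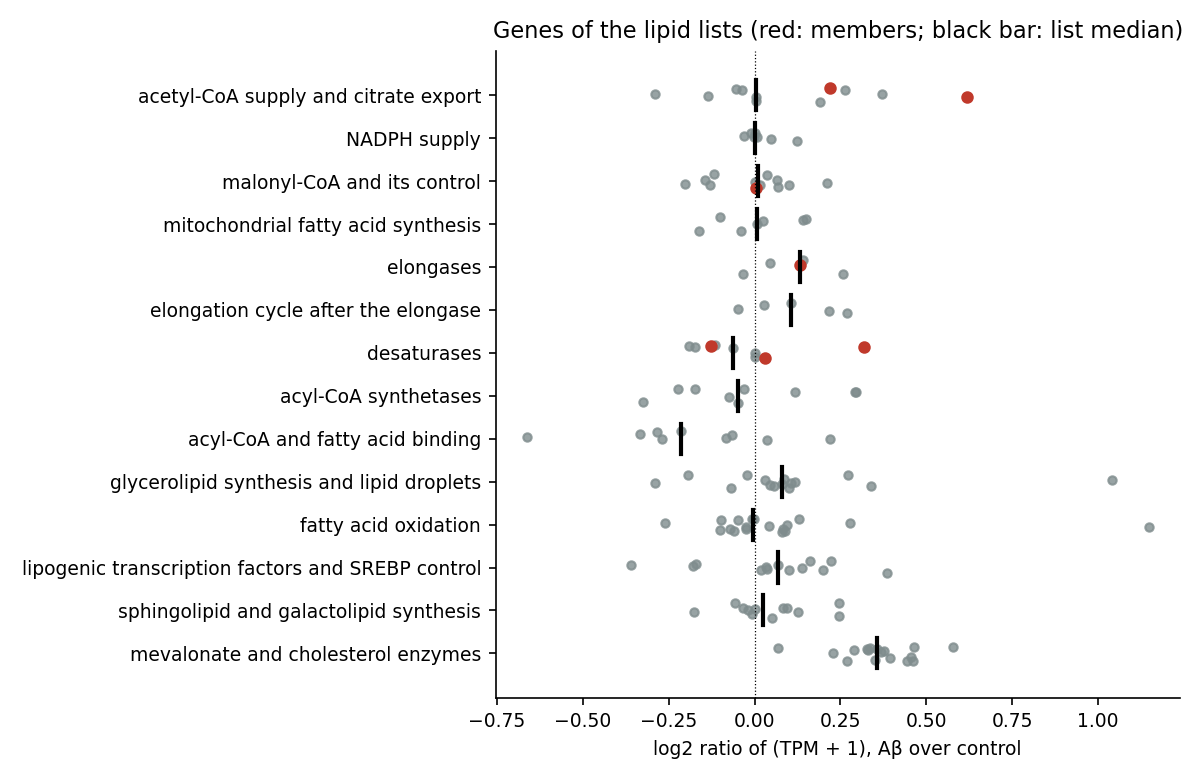
Log2 ratio of (TPM + 1), Aβ over control, of each gene at 1 TPM or more in 14 lists of lipid genes (points, spread vertically for visibility), with list medians as black bars and the fatty acid synthesis and desaturation genes in red. The bar of the mevalonate and cholesterol enzymes stands at 0.36 and that of fatty acid binding at −0.22, and the other 12 lie between −0.06 and 0.13.

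In the authors' deposited table of gene ontology terms for genes higher with Aβ, 1 of the 10 genes, Acss2, was named, in 5 of 282 terms. According to the authors' deposited table these included small molecule biosynthetic process (36 of 391 genes, fold enrichment 2.58, adjusted p = 4.47e-05) and memory (15 genes, fold enrichment 3.32, adjusted p = 0.00383). The only term in the authors' deposited table whose name speaks of fatty acids was regulation of fatty acid transport (5 genes, fold enrichment 5.46, adjusted p = 0.0382), and none of the 10 was in it. How its 391 genes were chosen is not stated in the sources used here, and it belongs to the same 2 libraries, so it is not independent of the ratios above.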

How the data were processed

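RNA-seq of 2 cultures was analysed, 1 per group. The submitters' processing notes name Bowtie2 and the build Rnor_6.0, while the counting tool and annotation are not stated in the sources used here. Estimated counts of reads per gene were deposited, not whole for 1979 genes with Aβ and 2074 in the control, with TPM and FPKM. A deposited column named normalized read count held, for each of 17049 genes, its read count raised to the next whole number, and it was left out. The authors' enrichment table gives, per the file headers, p-values, fold enrichment ratio and z score.

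Read ratios are Aβ over control after division by the library total. Reads were rounded to whole numbers, and the 95% interval is the exact binomial one (Clopper-Pearson, scipy 1.17.1), conditional on their sum. The reads carry no molecular identifiers, so they are not independent molecules. Where no read was counted, up to 3 are allowed (0.191 CPM with Aβ, 0.192 CPM in the control). Log2 ratios use TPM with a pseudocount of 1, which understates low genes, over genes that reached 1 TPM in a library. Ratios of ratios carry Wald intervals, and their pairs were chosen after the values were seen. With 1 library per group no count model was fitted, and edgeR 4.0.16 gave only TMM factors.

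The genes and the 14 lipid lists were chosen with earlier results of these data known. Named were the 10 genes, at least the 3 of each lipid list with the largest absolute log2 ratio and 50 or more reads, and further list genes. Symbols missing from the table were looked up by gene number in RefSeq (GRCr8). Of the marker sets, the 4 adipocyte markers are not analysed here.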

Additional observations from a re-analysis of the deposited data

How the results depend on the processing

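No paired analysis was possible because each group has 1 library, and no replicate could be left out. Besides library scaling (median-of-ratios and TMM factors), the alternatives were ratios of deposited TPM, pseudocounts of 0.1 and 5, CPM or FPKM for TPM, other level filters, a 99% interval, and leaving out genes whose reads were not whole. The median log2 ratio of the genes ran from 0.13 (no level filter, or without Scd) to 0.18, and the number with a read interval above 1 from 4 to 5. Without genes whose reads were not whole, Scd drops out and 1 gene in place of 2 was at least 1.2-fold higher. Summing Scd with Scd2, chosen after seeing the data, turned its ratio from 1.24 to 0.934, since Scd2 holds most of the reads. Rescaling TPM to a median log2 ratio of 0, also chosen afterwards, put 6 genes above and 2 below. Of the list medians, acetyl-CoA supply moved to 0.10 with no level filter, as Pdk4 entered, and the elongation cycle to 0.02 by CPM. Counting depth limits Acacb most.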

Other observations

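Of 9 measured genes that bind fatty acids and acyl-CoA, 7 were lower and 2 higher with Aβ by TPM, but the read interval lay below 1 for only 3, above 1 for 1, and included 1 for 5. Their median log2 ratio was −0.22, beside 0.01 for all 12980 genes, of which 12.5% had a read interval below 1. Fabp7, the brain fatty acid binding protein of glial progenitors, had 5661 TPM in the Aβ library against 6895 TPM in the control, giving a read ratio of 0.849 (0.832 to 0.866), and Fabp5 was at 1086 and 1262 TPM (0.884, 0.847 to 0.923). Pmp2, the myelin fatty acid binding protein, was at 0.782 (0.621 to 0.983), and Fabp3 had 22 and 36 reads (0.610, 0.342 to 1.06). Dbi, the acyl-CoA binding protein, was at 1.07 (1.03 to 1.10).

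Glycerolipid and lipid droplet genes had a median log2 ratio of 0.08, with 11 of 15 higher, and read intervals lay above 1 for 2 genes and below 1 for 2. Those interval counts lay near the shares over all 12980 genes, 12% above and 12.5% below. By TPM 6710 of all genes were higher and 6222 lower. Gpam, the mitochondrial acyltransferase that starts glycerolipid synthesis, was lower (0.809, 0.779 to 0.840), as was the droplet coat gene Plin2 (0.871, 0.797 to 0.953). Gpat3 was at 1.48 (0.902 to 2.46) on 43 and 29 reads, and Pnpla2, the triglyceride lipase, was listed at 2.11 (1.85 to 2.41) from 716 and 338.39 reads, the latter not whole. Sphingolipid and galactolipid genes had a median of 0.03, with 6 of 12 higher and 5 lower by TPM (6 and 6 by reads), and the ceramide synthase Cers4 (1.19, 1.05 to 1.36) was the one whose read interval lay above 1, while Gal3st1 (1.18, 0.929 to 1.50) and Kdsr (0.873, 0.747 to 1.02) included 1. The mitochondrial fatty acid synthesis genes had a median of 0.01, with 4 of 7 higher and 3 lower by TPM (5 and 2 by reads), and all 7 intervals included 1, among them Oxsm (0.883, 0.734 to 1.06), Mecr (1.07, 0.882 to 1.29) and Acsf3 (1.07, 0.921 to 1.24).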
